A study of Homo sapiens with 12 samples.

Results

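Olfactory receptors are genes that a kidney cell line has no known use for, so the reads they collect give a level for genes taken to be silent. The members here were the protein-coding olfactory receptors of families 1, 2, 4, 5 and 6, found by symbol in GENCODE release 29 with pseudogenes left out. Of 220 such genes, 205 had a row among the 57773 genes of the count table, and 15 were not matched. The rule used gene annotation and no measured value, but it was set with earlier results of these data known.

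The libraries came from HEK293, an established human embryonic kidney line, and from the extracellular vesicles (EVs) it sheds into the medium. All 4 groups carried the same transfected vector set, 4EC1, whose design names eGFP, EIF4E, YTHDF1, GBP1 and CD9, so no untransfected control was among them. The groups were EVs of cells kept for 24 h in a hypoxia chamber, EVs of cells in normoxia, the hypoxic cells and the normoxic cells, each with 3 libraries and 48 h of transfection. The labels do not say whether replicates were separate cultures, and p-values therefore measure only the spread between these libraries, which may be technical. For EV RNA the labels name an exoRNeasy kit and no further separation step.

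Olfactory receptors are G-protein-coupled receptors of the olfactory sensory neurons of the nose. Each such neuron expresses a single receptor gene, chosen from a very large family whose members lie in clusters on many chromosomes and stay packed in silent chromatin elsewhere. An odorant bound by the receptor activates the G protein subunit GNAL, adenylyl cyclase ADCY3 makes cyclic AMP, and the channel formed by CNGA2, CNGA4 and CNGB1 opens. Most receptor genes have their whole coding sequence in a single exon, which makes their lengths alike. Coding sequences of the 205 members ran from 909 to 1110 bases, with a median of 939, and their GC content ran from 36.6% to 59.2%, with a median of 46.5%.

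Levels in EV libraries went with GC content, so a matching stretch of 120 coding bases is shown for the GC-richest pair, OR1K1 and OR5C1, and for the GC-poorest pair, OR6C68 and OR5H2. The sequences are from GENCODE 29 transcripts on GRCh38, all on the plus strand, with G and C in capitals. OR1K1 (chr9:122800423-122800542) holds 72 such bases, OR5C1 (chr9:122789233-122789352) 62, OR6C68 (chr12:55492678-55492797) 49 and OR5H2 (chr3:98283188-98283307) 43.
OR1K1: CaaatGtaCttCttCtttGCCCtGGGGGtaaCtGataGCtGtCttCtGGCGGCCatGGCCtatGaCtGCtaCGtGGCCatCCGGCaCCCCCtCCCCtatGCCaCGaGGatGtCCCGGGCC
OR5C1: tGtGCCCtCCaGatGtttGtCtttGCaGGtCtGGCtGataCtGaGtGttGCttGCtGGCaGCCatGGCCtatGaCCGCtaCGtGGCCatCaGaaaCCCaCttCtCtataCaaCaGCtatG
OR6C68: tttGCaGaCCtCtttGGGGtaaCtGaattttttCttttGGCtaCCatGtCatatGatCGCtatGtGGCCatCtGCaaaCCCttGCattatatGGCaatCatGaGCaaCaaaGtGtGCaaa
OR5H2: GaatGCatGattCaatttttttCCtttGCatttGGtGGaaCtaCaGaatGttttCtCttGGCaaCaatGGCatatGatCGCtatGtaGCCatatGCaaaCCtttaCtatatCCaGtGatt
OR1K1 had 40, 25 and 8 reads in hypoxia EVs, 8, 1 and 25 in normoxia EVs, 1, 0 and 10 in hypoxia cells, and 9, 0 and 7 in normoxia cells. OR5C1 had 48, 49 and 30 reads in hypoxia EVs, 0, 11 and 16 in normoxia EVs, 1, 7 and 7 in hypoxia cells, and 7, 0 and 3 in normoxia cells. OR6C68 had 0, 0 and 8 reads in hypoxia EVs and none in the other 9 libraries, and OR5H2 had 0, 0 and 1 read in hypoxia EVs, none in normoxia EVs, 6, 2 and 0 in hypoxia cells, and 1, 0 and 0 in normoxia cells. The GC-rich pair was thus read in every hypoxia EV library and the GC-poor pair in a single hypoxia EV library. OR1K1 lies inside PDCL, on the other strand, which averaged 419 deposited units in cells and 361 in EVs. OR6C68 lies inside AC122685.1 (0.676 and 7.86 units) and OR5H2 inside AC117473.1 (1.31 and 6.44 units). Whether reads of these host genes add to the members was not tested.

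The deposited values are read counts divided by 1 factor per library, so whole reads could be recovered. The total of recovered reads was 3259453 to 6129782 per library in hypoxia EVs, 5266244 to 7001767 in normoxia EVs, 18059381 to 19422032 in hypoxia cells and 19380437 to 23400813 in normoxia cells. Where a gene had no read, up to 3 reads remain possible, and for a coding sequence of 1 kb these equal 0.489 to 0.92 RPKM in hypoxia EVs and 0.128 to 0.166 RPKM across the 6 cell libraries, counting error only. Of 9 listed HEK293 markers 8 were matched and none of them was at 0, with IRS4 at 4750 ± 81.3 deposited units in hypoxia cells and 9274 ± 65.8 in normoxia cells. ACTB averaged 13301 deposited units in hypoxia EVs, 22855 in normoxia EVs, 18862 in hypoxia cells and 24395 in normoxia cells, and GAPDH 5415, 7761, 13173 and 11036 units in the same groups. Bulk libraries cannot tell fewer templates per vesicle or cell from fewer vesicles or cells that hold them.

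Reads on olfactory receptors took up more of the hypoxia EV libraries than of any other group. Their level is given as coding RPKM, the CPM (reads scaled to the library total) per kb of coding sequence, averaged over all 205 members with zeros included. The mean was 2.19, 2.18 and 2.35 coding RPKM in hypoxia EVs, 0.224, 0.421 and 1.08 in normoxia EVs, 0.233, 0.145 and 0.135 in hypoxia cells, and 0.128, 0.129 and 0.0674 in normoxia cells. Hypoxia EVs lay above normoxia EVs without overlap, and the normoxia EV libraries differed among themselves by more than the cell libraries did. Group means were 2.24 ± 0.098 in hypoxia EVs, 0.576 ± 0.451 in normoxia EVs, 0.171 ± 0.0537 in hypoxia cells and 0.108 ± 0.0353 in normoxia cells (SD, n = 3 each).

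**Figure D1:**
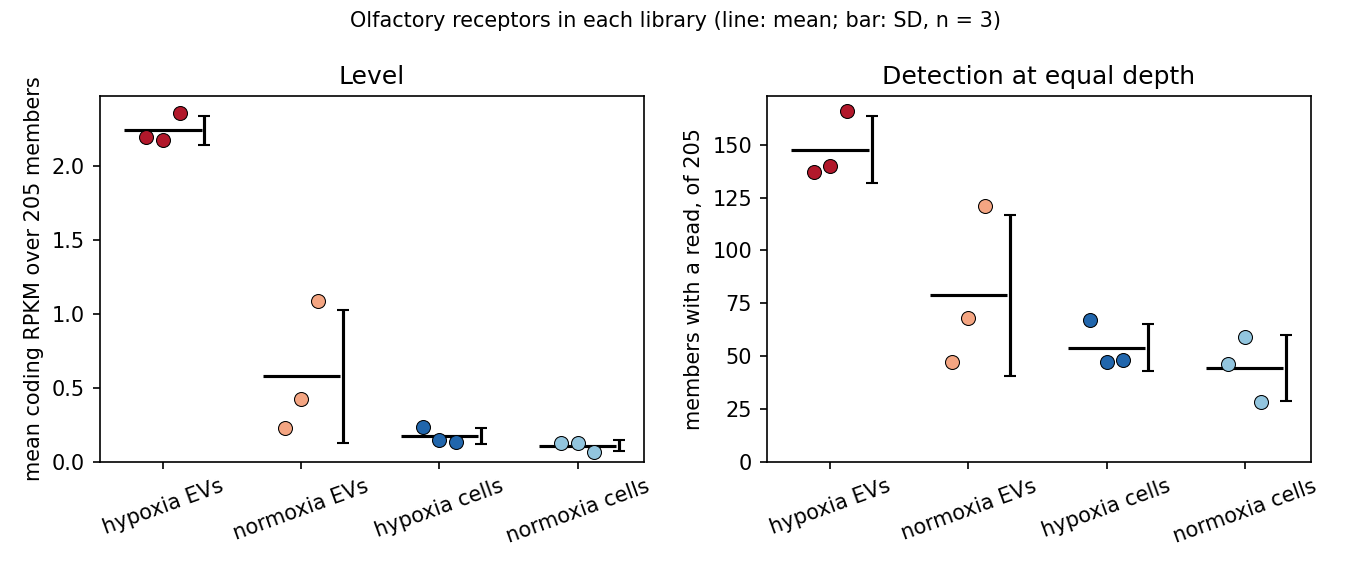
Left, the mean coding RPKM over the 205 olfactory receptors in each library, and right, the number of members with at least 1 read after every library was thinned to 3259453 reads. Points are libraries, lines group means and bars SD (n = 3). The hypoxia EV libraries sit between 2.18 and 2.35 coding RPKM, above every normoxia EV and cell library.

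Summed RPKM over the members, on merged exon length, was 3.81 times as high in hypoxia EVs as in normoxia EVs, and the groups did not overlap. The ratio was 7 without the third normoxia EV library and 2.78 on the deposited values per kb, which are scaled by the authors' factors instead of library totals. Hypoxia EVs were 12.2 times as high as hypoxia cells, and normoxia EVs 4.95 times as high as normoxia cells, both without overlap. Without the third normoxia EV library the ratio of normoxia EVs over normoxia cells was 2.69. Hypoxia cells were 1.54 times as high as normoxia cells on summed RPKM, where the groups overlapped, and 1.58 times on mean coding RPKM, where the lowest hypoxia cell library (0.135) lay just above the highest normoxia cell library (0.129). Taken as the mean of each library's median over members, in place of the sum, the ratio was 8.67 for hypoxia EVs over normoxia EVs and 3.76 for hypoxia cells over normoxia cells. The median member had 0 reads in 2 normoxia EV libraries and in 1 normoxia cell library, which makes these ratios large. No p-value was computed for these sums over members.

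Markers of blood, immune and liver cells also had their highest sums in hypoxia EVs. The 8 blood and immune markers summed to 335 to 420 deposited units in hypoxia EVs, 153 to 344 in normoxia EVs, 53 to 80 in hypoxia cells and 60.1 to 63.9 in normoxia cells. The 7 liver and plasma protein markers summed to 516 to 666 units in hypoxia EVs, 112 to 354 in normoxia EVs, 35 to 69.2 in hypoxia cells and 39.3 to 56.2 in normoxia cells. None of these 15 markers was at 0 in all EV or all cell libraries, and the haemoglobin gene HBB averaged 9.66 units in hypoxia EVs, 7.17 in normoxia EVs, 0.518 in hypoxia cells and 0.184 in normoxia cells. The 7 olfactory sensory neuron markers summed to 286 to 349 units in hypoxia EVs, 102 to 241 in normoxia EVs, 158 to 208 in hypoxia cells and 185 to 249 in normoxia cells. That sum joins markers that did not go together between EVs and cells. As given below, CNGA2 was higher in EVs in hypoxia and GNAL lower in EVs in normoxia. OMP, the marker of mature olfactory neurons, had 9, 1 and 1 reads in hypoxia EVs, 2, 6 and 0 in normoxia EVs, 10, 11 and 17 in hypoxia cells and 11, 14 and 4 in normoxia cells. The part of these genes' sources in the receptor level was not tested.

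Detection followed the same order once depth was made equal. With every library thinned to 3259453 reads, 137, 140 and 166 of the 205 members had a read in hypoxia EVs, 47, 68 and 121 in normoxia EVs, 67, 47 and 48 in hypoxia cells, and 46, 59 and 28 in normoxia cells. Normoxia EVs and normoxia cells overlapped on this measure, as did hypoxia cells and normoxia cells. Without thinning, 149 to 166 members had a read in hypoxia EVs, 59 to 133 in normoxia EVs, 107 to 141 in hypoxia cells and 89 to 109 in normoxia cells. Over the 3 libraries of a group, 184 members had a read in hypoxia EVs, 153 in normoxia EVs, 177 in hypoxia cells and 168 in normoxia cells.

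The reads were spread over many members. The 10 members with most reads took 22.1% of the receptor reads in hypoxia EVs, 21.5% in normoxia EVs, 23.7% in hypoxia cells and 24% in normoxia cells. In hypoxia EVs the members ran from a 10th percentile of 0.0226 coding RPKM through a median of 1.4 to a 90th percentile of 5.35, and the highest reached 16.3. The medians were 0.344 in normoxia EVs, 0.116 in hypoxia cells and 0.068 in normoxia cells. Libraries of the hypoxia EV group ranked the members alike, with Spearman correlations of 0.652 to 0.72 between library pairs over 205 members. The pairs gave 0.255 to 0.46 in normoxia EVs, 0.232 to 0.409 in hypoxia cells and 0.208 to 0.26 in normoxia cells, where most members had few reads.

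Members over 55% GC had a higher mean level than those under 40% GC in each of the 12 libraries. In hypoxia EVs the mean level was 0.242 coding RPKM for the 21 members under 40% GC, 0.984 for the 61 members at 40 to 45%, 2.38 for the 70 at 45 to 50%, 4.13 for the 43 at 50 to 55% and 4.99 for the 10 over 55%. In normoxia EVs the same classes averaged 0.115, 0.292, 0.614, 0.999 and 1.2 coding RPKM. Hypoxia cells had 0.0759, 0.172, 0.155, 0.209 and 0.311, and normoxia cells 0.0548, 0.102, 0.102, 0.134 and 0.19. The GC-richest class was 20.6 times as high as the GC-poorest in hypoxia EVs, 10.4 times in normoxia EVs, 4.1 times in hypoxia cells and 3.46 times in normoxia cells. Without the third hypoxia EV library the ratio in hypoxia EVs was 57, where the GC-poorest class had 0.0824, 0.107 and 0.538 coding RPKM in the hypoxia EV libraries. Single libraries gave ratios of 7.82 to 68.5 in hypoxia EVs, 6.45 to 45.7 in normoxia EVs, 2.72 to 7.72 in hypoxia cells and 2.11 to 8.38 in normoxia cells, so EV and cell libraries overlapped on this ratio. Per library, the Spearman correlation between GC content and level over the 205 members was 0.448 to 0.643 in hypoxia EVs, 0.258 to 0.494 in normoxia EVs, 0.106 to 0.226 in hypoxia cells and 0.0908 to 0.235 in normoxia cells. These are descriptions, since the members of a library share its depth and many share sequence.

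**Figure D2:**
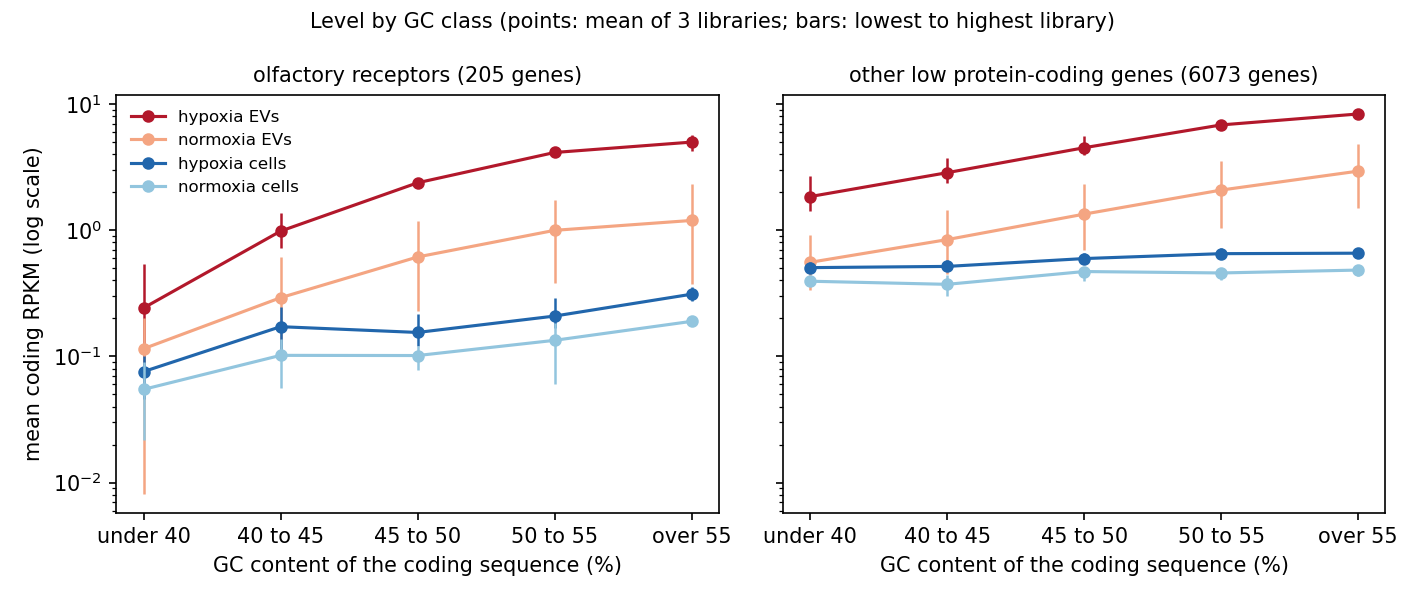
Mean coding RPKM (log axis) by GC class of the coding sequence, for the 205 olfactory receptors (left) and the 6073 other low protein-coding genes (right). Points are means of 3 libraries and bars run from the lowest to the highest library. In hypoxia EVs the receptors climb from 0.242 under 40% GC to 4.99 over 55% GC.

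**Figure D3:**
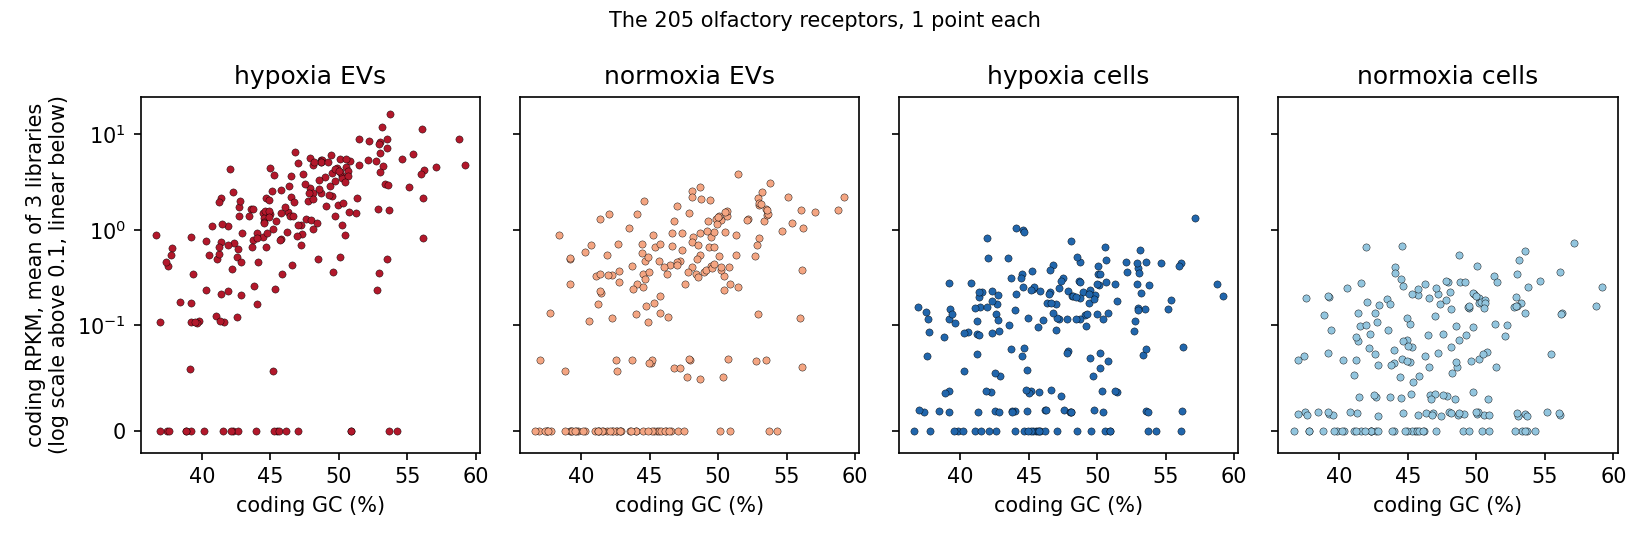
Coding RPKM of each of the 205 members (mean of 3 libraries, axis logarithmic above 0.1 and linear below) against coding GC content, with 1 panel per group. The upward slope in hypoxia EVs runs to OR2V1 at 16.3 coding RPKM, while the cell panels stay at or below 1.35.

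The rise with GC was also seen outside the receptors. Among 6073 other protein-coding genes whose mean in cells was at most 20 deposited units, the class under 40% GC averaged 1.85 coding RPKM in hypoxia EVs, 0.557 in normoxia EVs, 0.506 in hypoxia cells and 0.395 in normoxia cells. The class over 55% averaged 8.34 in hypoxia EVs, 2.94 in normoxia EVs, 0.658 in hypoxia cells and 0.484 in normoxia cells. The step between those classes was 4.51-fold in hypoxia EVs, 5.28-fold in normoxia EVs, 1.3-fold in hypoxia cells and 1.23-fold in normoxia cells. Low values in cells chose these genes, which caps their cell levels in every GC class. The EV steps are therefore not compared with the cell steps. The median GC of these genes was 54.4%. Whether the GC steps of receptors and other low genes differ was not tested.

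Receptor families differed in level, and family 5, with the lowest mean GC, was the lowest in every group. Family 1 (24 members, mean GC 49.4%) averaged 3.66 coding RPKM in hypoxia EVs, 0.953 in normoxia EVs, 0.195 in hypoxia cells and 0.129 in normoxia cells. Family 2 (63 members, 49.5%) had 2.72, 0.709, 0.202 and 0.141 in the same groups, and family 6 (29 members, 45.7%) had 2.71, 0.522, 0.197 and 0.0837. Family 4 (45 members, 45%) had 1.51, 0.507, 0.161 and 0.0997, and family 5 (44 members, 43%) had 1.22 in hypoxia EVs, 0.288 in normoxia EVs, 0.105 in hypoxia cells and 0.0743 in normoxia cells. Every family was higher in each hypoxia EV library than in any normoxia EV library.

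Among subfamilies with at least 4 members, OR2M (5 members) was the highest in hypoxia EVs, at 3.93, 5.95 and 4.28 coding RPKM against 0.683, 1.84 and 1.14 in normoxia EVs. OR2A (9 members) had 3.64, 3.85 and 4.86 in hypoxia EVs and 0.201, 0.646 and 1.43 in normoxia EVs. OR6C, a GC-poor subfamily of 11 members at a mean of 39.7% GC, had 0.112, 0.106 and 0.865 in hypoxia EVs and 0.0163, 0.207 and 0.24 in normoxia EVs, and these groups overlapped. OR5K (4 members, 38.6% GC) also overlapped, with 0.127, 0.189 and 0.24 in hypoxia EVs and 0, 0.222 and 0.649 in normoxia EVs. In hypoxia OR2B had the smallest ratio of EVs over cells among these subfamilies, at 0.927 in hypoxia EVs against 0.469 in hypoxia cells.

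Single members were tested with limma-trend on log2(deposited value + 1), with Benjamini-Hochberg adjustment over every gene that averaged 10 or more in the fit and a threshold of 0.05. That scale understates the change of low genes, and a member low in every group could not enter. In the 6 EV libraries 86 of the 205 members passed the filter and 8 were higher in hypoxia EVs, 0 lower, where 5.68% of all 27904 genes tested were higher and 6.62% lower. The 8 are 9.3% of the members tested, and with the filter passing members through the group where they are high, this share is not set against the background as a result. At an unadjusted p under 0.05 there were 37. The median log2 fold change over all genes tested was 0.60, although more genes were called lower than higher.

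Among all 205 members, 48 had hypoxia EV values that did not overlap the normoxia EV values and were higher, and 0 lower, on the deposited scale. These are 25.5% of the 188 members with a read in those libraries, where 18.9% of all genes were higher without overlap and 8.46% lower. As CPM the count was 66 of 188, or 35.1%, and 0 were lower, beside 28.7% higher and 1.78% lower of all genes. Most members overlapped. Whether the share of members higher without overlap differs from that of all genes was not tested, and no result about the members is drawn from it. A member with no read in a normoxia EV library could not be lower without overlap.

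OR2V1 (chromosome 5) was the member with the highest level in hypoxia EVs. It had 81, 92 and 53 reads in hypoxia EVs, 4, 10 and 35 in normoxia EVs, 6, 4 and 4 in hypoxia cells, and 1, 12 and 1 in normoxia cells. Its level was 16.3 ± 2.02 coding RPKM in hypoxia EVs, 3.09 ± 3.44 in normoxia EVs, 0.263 ± 0.0764 in hypoxia cells and 0.25 ± 0.351 in normoxia cells. The EV groups did not overlap, and the third normoxia EV library stood nearest. The log2 fold change of hypoxia over normoxia EVs was 2.41 (SE 0.64, limma-trend adjusted p = 0.0262).

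OR6V1 (chromosome 7) had the highest mean RPKM over the 6 EV libraries by merged exon length and was also among the 10 highest in cells. It had 87, 62 and 28 reads in hypoxia EVs, 5, 15 and 12 in normoxia EVs, 23, 7 and 2 in hypoxia cells, and 15, 11 and 2 in normoxia cells. That was 12.1 ± 2.98 coding RPKM in hypoxia EVs and 1.87 ± 0.845 in normoxia EVs, a log2 fold change of 2.17 (SE 0.65, adjusted p = 0.037). OR6B2 (chromosome 2) had 91, 65 and 18 reads in hypoxia EVs and 9, 12 and 7 in normoxia EVs, and 2, 12 and 10 in hypoxia cells and 2, 8 and 12 in normoxia cells. Its log2 fold change of hypoxia over normoxia EVs was 2.09 (SE 0.69, adjusted p = 0.0485).

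OR4E2 and OR5A2 had no read in any normoxia EV library. OR4E2 (chromosome 14) had 19, 32 and 5 reads in hypoxia EVs, 9, 10 and 1 in hypoxia cells and 0, 0 and 4 in normoxia cells. Its pooled CPM in hypoxia EVs was 22.8 times a floor of 3 reads over the 3 normoxia EV libraries, counting error only. The fitted log2 fold change was 4.71 (SE 1.42, limma-trend adjusted p = 0.0369). OR5A2 (chromosome 11) had 14, 16 and 12 reads in hypoxia EVs, 9, 0 and 8 in hypoxia cells and 1, 1 and 0 in normoxia cells. Its pooled CPM in hypoxia EVs was 17.1 times the same floor in normoxia EVs. The fitted log2 fold change was 4.64 (SE 1.41, limma-trend adjusted p = 0.038).

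OR2T33, OR2AG2 and OR6J1 completed the 8. OR2T33 (chromosome 1) had 44, 23 and 12 reads in hypoxia EVs and 0, 0 and 8 in normoxia EVs, with a log2 fold change of 3.99 (SE 1.3, adjusted p = 0.0466). It shares 70.4% of its 50-base coding windows with another gene, most of all OR2T8, so its reads may be split. OR2AG2 (chromosome 11) had 26, 18 and 20 reads in hypoxia EVs and 0, 1 and 3 in normoxia EVs, with a log2 fold change of 3.8 (SE 1.23, adjusted p = 0.0459). OR6J1 (chromosome 14) had 15, 39 and 23 reads in hypoxia EVs and 0, 1 and 6 in normoxia EVs, with a log2 fold change of 3.68 (SE 1.22, adjusted p = 0.0497). Each of the 8 lay close to the threshold: leaving out any of the 3 hypoxia EV libraries, or the first or second normoxia EV library, left 0 calls, and leaving out the third normoxia EV library gave 37. The share of all genes called in these refits is not given, so their counts are not set against it.

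**Figure D4:**
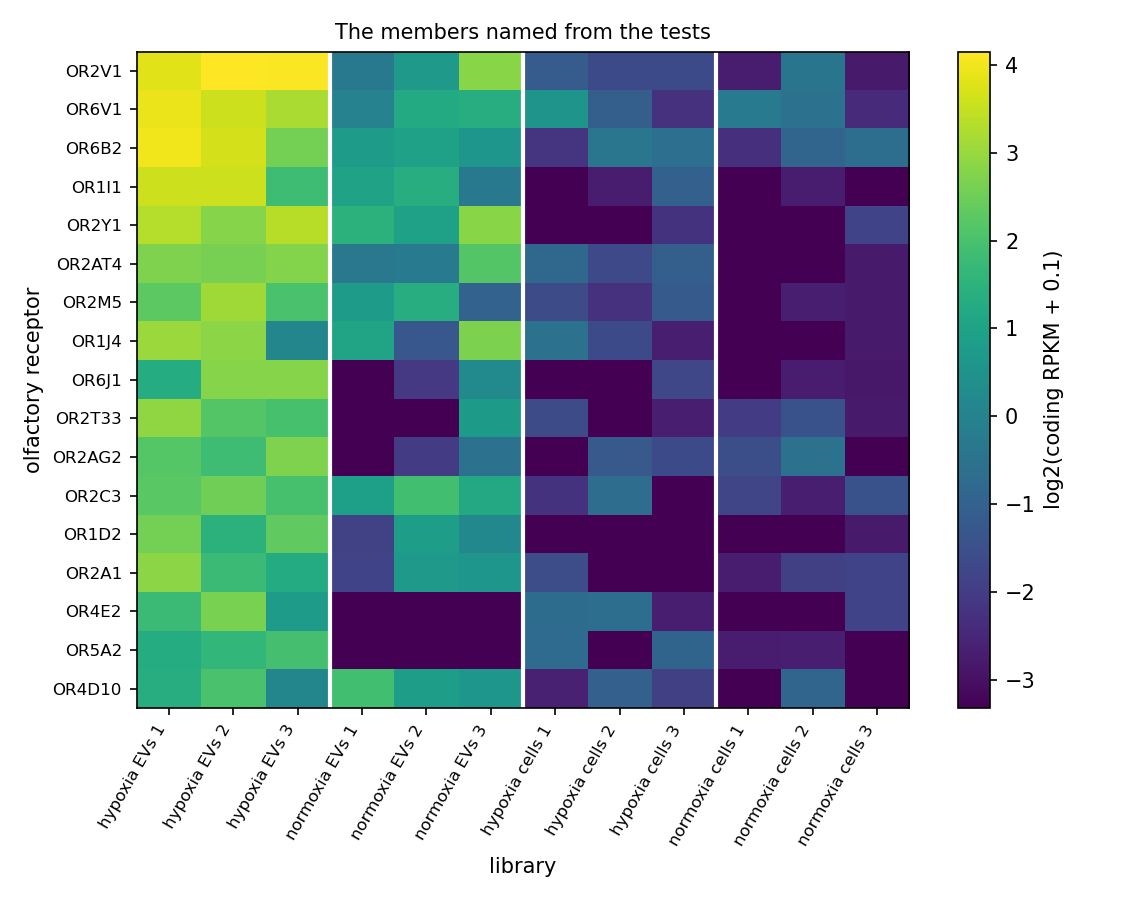
Log2(coding RPKM + 0.1) in each of the 12 libraries for the 17 members named from the tests, ordered by their level in hypoxia EVs. Colour runs from dark (no read) to yellow, with OR2V1 at the top (16.3 coding RPKM in hypoxia EVs) and the darkest cells in the cell libraries and in normoxia EVs for OR4E2 and OR5A2.

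Hypoxia and normoxia could not be compared member by member in cells with the same test, because 0 of the 205 members reached the filter mean of 10, so limma-trend, edgeR and DESeq2 made 0 calls and there was no unadjusted p to count, where 8.01% of all 17260 genes tested were higher and 22.4% lower. Of the 188 members with a read in the cell libraries, 14 were higher in hypoxia cells without overlap (7.45%, beside 8.74% of all genes) and 2 were lower (1.06%, beside 10.9% of all genes). As CPM 15 were higher and 2 lower, beside 12.5% and 6.93% of all genes. The 2 lower were OR2D2, with 1, 0 and 0 reads in hypoxia cells and 4, 6 and 6 in normoxia cells, and OR5M8, with 0 in hypoxia cells and 2, 3 and 2 in normoxia cells. Both were named after their values were seen, and at so few reads no difference is claimed for either.

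EVs were compared with cells under the same oxygen in a fit of all 12 libraries, in which 51 members passed the filter. In hypoxia 48 members were higher in EVs and 0 lower, where 40.6% of all 24171 genes tested were higher and 29.1% lower. Without a filter, limma-trend found 89 members higher and 1 lower, beside 28.2% higher and 14.2% lower of all genes. In normoxia 19 were higher and 0 lower, where 29% of all genes were higher and 27.2% lower, and edgeR on whole reads found 36 members higher (31.9% of all genes) and DESeq2 38 (37.9% of all genes). Both comparisons use the same fit, and the filter again passed members through the EV groups, where they were high.

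Over all members with a read, 100 of 191 were higher in hypoxia EVs than in hypoxia cells without overlap (52.4%, beside 34.7% of all genes) and 1 was lower (0.524%, beside 17.8%). As CPM 101 were higher and 1 lower, beside 38.1% and 15.2% of all genes. The 1 lower was OR4C12, named after its values were seen, with 0 reads in every EV library and 5, 1 and 6 in hypoxia cells. In normoxia 26 of 182 were higher in EVs without overlap (14.3%, beside 16.5% of all genes) and 7 lower (3.85%, beside 18.8%), and as CPM 24 were higher and 7 lower, beside 14.7% and 20.7% of all genes. The shares of members higher in EVs were therefore near the background in normoxia and above it in hypoxia, a difference that was not tested.

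OR2Y1 (chromosome 5) had the largest fitted EV over cell difference of the 51 members tested, in both oxygen states. It had 57, 35 and 31 reads in hypoxia EVs, 15, 12 and 34 in normoxia EVs, 0, 0 and 2 in hypoxia cells, and 0, 0 and 4 in normoxia cells. The log2 fold change of EVs over cells was 5.77 (SE 0.79, adjusted p = 3.53e-06) in hypoxia and 4.74 (SE 0.79, adjusted p = 4.58e-05) in normoxia. OR1I1 (chromosome 19) had 77, 70 and 12 reads in hypoxia EVs, 12, 18 and 4 in normoxia EVs, 0, 1 and 8 in hypoxia cells, and 0, 1 and 0 in normoxia cells. Its log2 fold change was 5.15 (SE 0.88, adjusted p = 4.82e-05) in hypoxia and 4.15 (SE 0.88, adjusted p = 0.000544) in normoxia.

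OR1D2, a receptor also known from human sperm, had 34, 14 and 15 reads in hypoxia EVs and none in hypoxia cells. Its pooled CPM in hypoxia EVs was 79.9 times a floor of 3 reads over the 3 hypoxia cell libraries, counting error only. The fitted log2 fold change was 5.10 (SE 0.92, limma-trend adjusted p = 8.15e-05). In hypoxia OR2V1, OR6J1, OR6B2, OR6V1 and OR2A1 were also among the 8 members with the largest lower bound, at log2 fold changes of 5.22, 4.85, 4.19, 4.21 and 4.37. OR2A1 encodes the same protein as OR2A42 and shares an antisense partner's exon, OR2A1-AS1, so its 41, 17 and 7 reads in hypoxia EVs, against 4, 0 and 0 in hypoxia cells, are uncertain in origin.

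In normoxia the other members of that kind were OR2AT4, OR1J4, OR4D10, OR2C3, OR2M5 and OR2V1, with log2 fold changes of EVs over cells between 3.23 and 4.11. OR2AT4, a receptor also described in skin keratinocytes, had 4, 5 and 22 reads in normoxia EVs and 0, 0 and 1 in normoxia cells. OR2C3 had 10, 24 and 11 reads in normoxia EVs and 4, 1 and 6 in normoxia cells, but all of its coding windows lie also in GCSAML-AS1 and it shares exonic bases with GCSAML. OR4D10 had 20, 11 and 7 reads in normoxia EVs against 0, 8 and 0 in normoxia cells, groups that did not overlap as CPM. Each of the 16 EV over cell results named here stayed past the threshold in every fit with a library left out that could test it.

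The EV response to hypoxia minus the cell response was not past the threshold for any of the 51 members tested (limma-trend, 8 at an unadjusted p under 0.05), where 0.443% of all genes were higher and 1.87% lower. Leaving out the third normoxia EV library gave 10 members higher, with no share of all genes to set beside them. A response of receptors in EVs that differs from that in cells was thus not shown for any single member.

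In cells the highest members were OR2W3, OR2D3, OR2B6 and OR2B2. OR2W3 (chromosome 1) had 11, 5 and 33 reads in hypoxia EVs, 0, 17 and 10 in normoxia EVs, 36, 23 and 12 in hypoxia cells, and 19, 15 and 9 in normoxia cells, or 4.54 ± 5.4, 1.53 ± 1.36, 1.35 ± 0.73 and 0.729 ± 0.286 coding RPKM in that order. Its EV over cell difference was within error in hypoxia (log2 fold change 0.86, SE 1.07, adjusted p = 0.486) and in normoxia (0.11, SE 1.07, adjusted p = 0.939). OR2D3 (chromosome 11) had 1, 4 and 10 reads in hypoxia EVs, 5, 0 and 1 in normoxia EVs, 27, 21 and 7 in hypoxia cells, and 14, 18 and 10 in normoxia cells.

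OR2B6 and OR2B2 lie by the histone gene cluster of chromosome 6, and the nearest gene that averaged 100 deposited units or more in cells was HIST1H3J. OR2B6 had 6, 0 and 1 reads in hypoxia EVs, 0, 0 and 4 in normoxia EVs, 38, 7 and 9 in hypoxia cells, and 14, 3 and 8 in normoxia cells. OR2B2 had 18, 0 and 2 reads in hypoxia EVs, none in normoxia EVs, 11, 32 and 7 in hypoxia cells, and 23, 17 and 4 in normoxia cells. OR2AE1, among the 10 highest in cells, overlaps TRIM4 on the same strand and shares 94 exonic bases with it. It had 23, 10 and 5 reads in hypoxia EVs, 0, 1 and 0 in normoxia EVs, 9, 5 and 11 in hypoxia cells, and 14, 8 and 12 in normoxia cells. OR6V1, OR1D5, OR1L1, OR4A47 and OR1F1 made up the rest of the 10 highest in cells, between 0.298 and 0.503 RPKM on merged exons.

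The 10 highest over the EV libraries were OR6V1, OR2Y1, OR5C1, OR1D5, OR6B2, OR1J4, OR2M7, OR1L4, OR2M5 and OR1K1. OR1D5 on chromosome 17 had 52, 63 and 12 reads in hypoxia EVs, 0, 13 and 17 in normoxia EVs, 10, 3 and 8 in hypoxia cells, and 1, 13 and 6 in normoxia cells. Of these, OR5C1, OR1J4, OR1L4 and OR1K1 lie together on chromosome 9, where all 14 members averaged 3.66 coding RPKM in hypoxia EVs, 1.07 in normoxia EVs, 0.202 in hypoxia cells and 0.131 in normoxia cells. OR2M7 and OR2M5 lie on chromosome 1, with 17, 62 and 14 and with 27, 43 and 12 reads in hypoxia EVs. Only OR6V1 and OR1D5 were among the 10 highest in both EVs and cells.

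Members within 100 kb of an active gene had higher levels than those farther off, and were also richer in GC. The 13 members within 20 kb of a gene that averaged 100 units or more in cells averaged 3.89 coding RPKM in hypoxia EVs, 0.663 in normoxia EVs, 0.344 in hypoxia cells and 0.243 in normoxia cells, at a mean GC of 50.9%. The 34 at 20 to 100 kb had 3.71, 0.97, 0.219 and 0.167 in the same groups, at 49.2% GC. The 158 farther off had 1.79, 0.484, 0.146 and 0.0844, at 45.6% GC. Distance and GC were not separated. The 35 members inside the body of another gene averaged 1.27 ± 0.0574 coding RPKM in hypoxia EVs against 2.44 ± 0.129 for the 170 that were not. In hypoxia cells they averaged 0.148 ± 0.0448 against 0.176 ± 0.0555 (SD, n = 3). Both classes were read in the same 3 libraries, so these SDs do not measure the spread between members. The differences between the classes were not tested. The host genes included PDCL, which holds OR1K1, at 419 deposited units in cells, and AC122685.1, at 0.676. Whether reads of host genes add to the members was not tested.

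Reads did not grow with the non-coding part of a gene's exons. In hypoxia EVs the 53 members with at most 10 annotated non-coding exonic bases had 10.7 reads each per library, the 72 in the class above that 9.28, and the 80 in the class with most 11.5. In normoxia cells the same classes had 2.33, 2.31 and 1.91 reads. For that reason member levels are given per coding length.

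Of the 205 members, 11 had no read in any library, and 7 of these lie in a single region of chromosome 6. OR4N4, OR6C76, OR4F5 and OR4F3 were the 4 elsewhere, of which OR4N4, OR4F5 and OR4F3 share 83% to 100% of their coding windows with another gene. OR2H2, OR2H1, OR2J2, OR2J3, OR2J1, OR2B3 and OR5V1 lie between 29086208 and 29590500 on chromosome 6 (GRCh38), in the region of the major histocompatibility complex, where they are 7 of 8 members. Of the 173 protein-coding genes of that region with a row, 46 (26.6%) had no read in any of the 12 libraries, against 416 of 19090 (2.18%) elsewhere. OR5V1 also shares exonic bases with the neighbouring OR11A1. In all, 21 members share at least 50% of their coding windows with another gene, 16 share an exonic base with another gene, and OR2A1 and OR2A42 encode identical proteins. Among protein-coding neighbours on overlapping exons were TRIM4 for OR2AE1, GCSAML and GCSAML-AS1 for OR2C3, CLDND1 for OR5K2, AP002512.3 for OR5M3 and OR5M9, AC134980.3 for OR4N4, AC118470.1 for OR6F1 and OR11A1 for OR5V1.

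Read counts on the members came in clumps. Over the 12 libraries, 353 member values were 1 read, 86 were 2, 73 were 3, 163 were 4, 77 were 5, 96 were 6, 61 were 7 and 72 were 8. In 10 of 12 libraries more members had 4 reads than 3. The same held over all genes, where 22731 values were 4 reads and 17589 were 3, and 4 was more frequent than 3 in each of the 12 libraries. Between libraries of a group, member counts differed by more than counting error, with a chi-square of 2.83 to 4.65 per degree of freedom in 12 pairs. Member counts therefore carry more error than counting alone gives.

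Other gene lists, taken for comparison of levels, gave levels of the same order in EVs. Olfactory receptors of other families (144 genes) averaged 3.14 coding RPKM in hypoxia EVs, 0.803 in normoxia EVs, 0.192 in hypoxia cells and 0.136 in normoxia cells. The 207 olfactory receptor pseudogenes of the same families, on exon length, had 1.66, 0.404, 0.156 and 0.101 in the same groups, and 38 beta-defensins, antimicrobial peptides of epithelia, had 2.03, 0.454, 0.266 and 0.152. The 92 keratin-associated proteins of hair, with a median GC of 63.2%, had 5.07 in hypoxia EVs, 1.64 in normoxia EVs, 0.249 in hypoxia cells and 0.178 in normoxia cells. Bitter taste receptors (24 genes, median GC 40.2%) had 1.75 in hypoxia EVs, 0.455 in normoxia EVs, 1.25 in hypoxia cells and 0.791 in normoxia cells, so their ratio of hypoxia EVs over hypoxia cells was 1.4, beside 13.1 for the receptors. The 3 vomeronasal receptors had 1.69, 0.187, 0.303 and 0.178. Hypoxia EVs over normoxia EVs gave 3.89 for the members and 3.1 to 4.47 for the other lists, except 9.01 for the 3 vomeronasal receptors. Differences between lists were not tested.

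**Figure D5:**
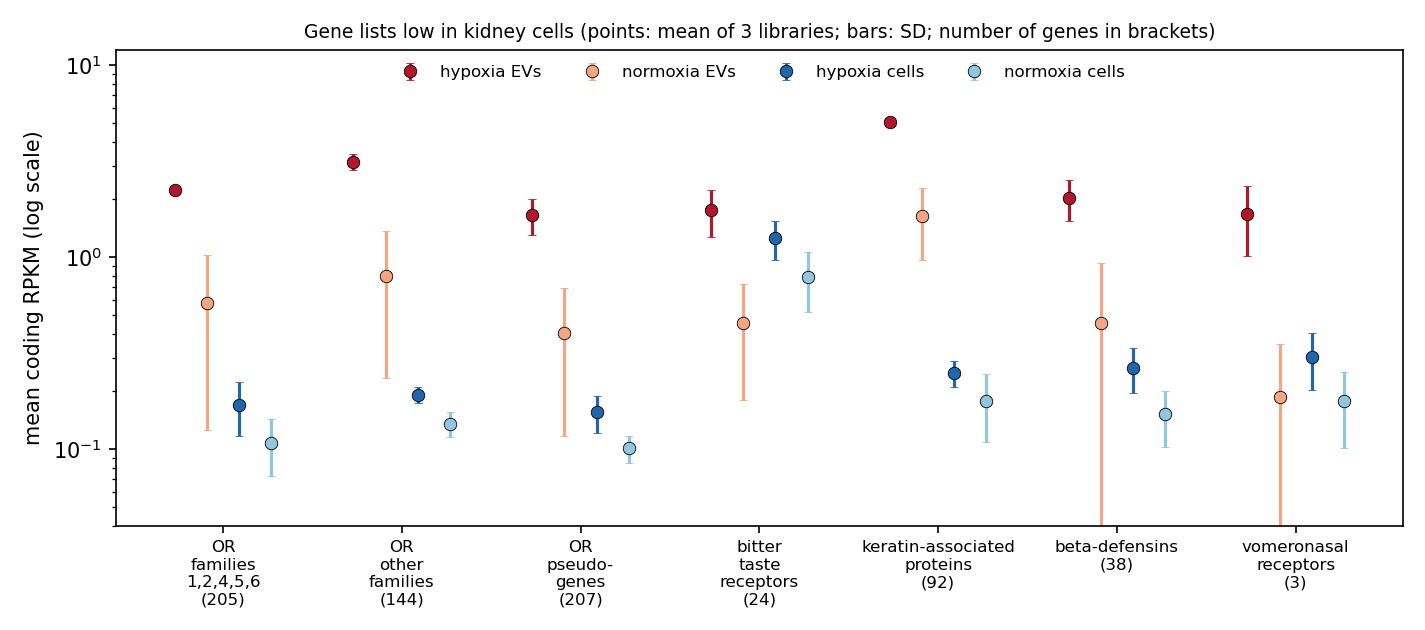
Mean coding RPKM (log axis) of the olfactory receptors and of 6 other gene lists, in hypoxia EVs, normoxia EVs, hypoxia cells and normoxia cells. Points are means of 3 libraries and bars SD. The receptors lie at 2.24 in hypoxia EVs and 0.108 in normoxia cells, while bitter taste receptors stay at 0.791 or more in cells.

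The members also give a level against which other genes can be read, for genes of like GC content. The 95th percentile of the members was 6.51 coding RPKM in hypoxia EVs, 2.07 in normoxia EVs, 0.499 in hypoxia cells and 0.344 in normoxia cells. Other low genes over 55% GC averaged 8.34 in hypoxia EVs and 2.94 in normoxia EVs, above that percentile, so it does not bound the reads of GC-rich genes. At or below it lay 6296 of 18877 other protein-coding genes (33.4%) in hypoxia EVs, 4833 (25.6%) in normoxia EVs, 3843 (20.4%) in hypoxia cells and 3773 (20%) in normoxia cells. Of the 1047 other protein-coding genes called higher in hypoxia EVs than in normoxia EVs, 186 (17.8%) were at or below that level in both groups. Of the 5521 called higher in hypoxia EVs than in hypoxia cells, 1155 (20.9%) were at or below it in both, and of the 4618 called higher in normoxia EVs than in normoxia cells, 639 (13.8%). In cells, 5 of 1131 genes called higher in hypoxia lay there in both groups. The shares among all such genes tested were 16% between the EV groups, 7.6% and 7.28% between EVs and cells in hypoxia and in normoxia, and 1.18% between the cell groups. The level was set in each group by itself and is lower in cells, so genes called lower in EVs could hardly lie below it and are not counted. Genes that low in cells could pass the filter mostly through their EV values, which favours a call of higher in EVs. In hypoxia 1155 of the 1273 tested genes at or below the level in both groups were called higher in EVs. In normoxia 639 of 1220 were. The shares of 20.9% and 13.8% are therefore not set against those of all genes tested as a result.

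Some of the listed genes for olfactory signalling and receptor choice passed the test between hypoxia and normoxia. Of 26 listed genes, 22 were tested in EVs, where 1 was higher in hypoxia and 2 lower, beside 5.68% higher and 6.62% lower of all genes. Leaving out a library gave 0 to 9 calls, with no share of all genes to set beside them. SLC24A4, the exchanger that ends the olfactory response, averaged 292 ± 6.59 deposited units in hypoxia EVs and 128 ± 62.3 in normoxia EVs, a log2 fold change of 1.33 (SE 0.36, adjusted p = 0.027). LDB1, a cofactor of LHX2 at receptor enhancers, averaged 908 ± 147 in hypoxia EVs and 1880 ± 528 in normoxia EVs, and KDM1A, a histone demethylase needed for receptor choice in mouse, 501 ± 35 and 813 ± 151. Their log2 fold changes were -1.02 and -0.68 (adjusted p = 0.0165 and 0.0497). Of the listed genes 18 were tested in cells. There 1 was higher in hypoxia and 1 lower, beside 8.01% higher and 22.4% lower of all genes. In cells PDE4A, a cyclic AMP phosphodiesterase, rose by 0.31 (SE 0.10, adjusted p = 0.0179) and KDM1A fell by 0.19 (SE 0.06, adjusted p = 0.00929) on the log2 scale.

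Between EVs and cells in hypoxia 8 of the 21 listed genes tested were higher and 5 lower, beside 40.6% higher and 29.1% lower of all genes, so the list did not stand above the background. CNGA2, CNGA4 and CNGB1, the subunits of the olfactory channel, were among the higher. CNGA2 had 97, 57 and 57 reads in hypoxia EVs, 0, 28 and 30 in normoxia EVs, 8, 1 and 4 in hypoxia cells, and 2, 2 and 11 in normoxia cells, with a log2 fold change of 5.34 in hypoxia (SE 1.14, adjusted p = 0.000423). CNGB1 had 271, 280 and 120 reads in hypoxia EVs and 35, 51 and 20 in hypoxia cells (log2 fold change 4.29, SE 0.41, adjusted p = 3.42e-08). ANO2, the calcium-activated chloride channel, GFY, EBF1, PDE1C and SLC24A4 were the other higher genes with CNGA4, at log2 fold changes of 1.67 to 3.51. The lower genes included KDM1A (-2.37), GRK3 (-1.14), RIC8B (-1.23) and SLC8A1 (-0.83), which cells express.

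In normoxia, where 29% of all genes were higher and 27.2% lower, 6 of 21 were higher in EVs (ANO2, CNGB1, GFY, EMX2, LDB1 and PDE4A) and 6 lower, among them KDM1A, GRK3, SLC8A1, GNAL and REEP1. CNGB1 had 53, 114 and 184 reads in normoxia EVs and 17, 19 and 19 in normoxia cells. GNAL averaged 90.1 ± 53.2 deposited units in normoxia EVs and 181 ± 41.1 in normoxia cells, a log2 fold change of -1.14 (SE 0.34, adjusted p = 0.00721). KDM1A, LDB1, ADCY3, GRK3 and PDE4A were among the highest of the list in cells, and ADCY3 averaged 436 ± 141 units in hypoxia EVs, 536 ± 114 in normoxia EVs, 525 ± 7.47 in hypoxia cells and 572 ± 65.9 in normoxia cells. For none of the 21 tested did the EV response to hypoxia minus the cell response pass the threshold (limma-trend, 7 at an unadjusted p under 0.05).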

How the data were processed

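RNA was measured in 12 libraries of 4 groups, assigned by the sample titles. Each deposited value is a signal, a read count that the authors divided by a single number for each library, as the values show: all (100%) were whole multiples of the library's smallest value within a tolerance of 0.01. Per the submitters' processing notes, Bowtie 0.12.2, DESeq2 1.30.1, hg38 and GRCh38 were used. The counter, its annotation and its strand setting are not stated in the labels, so reads of overlapping, antisense or near-identical genes may be split.

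Gene names, lengths and GC content came from GENCODE 29, which matched 52338 of the 57773 gene IDs and left 5435 unmatched. OR4F4, OR5D3P, OR5BS1P and OR2I1P were left out as pseudogenes. Single genes were tested with limma-trend in R 4.3.3 (limma 3.58.1) after adding 1 and taking log2, keeping genes that averaged 10 or more in the fitted libraries, with Benjamini-Hochberg adjustment. Hypoxia and normoxia were compared within the 6 EV or the 6 cell libraries, and EVs and cells over all 12. The alternatives were edgeR 4.0.16 and DESeq2 1.42.0 on the whole reads, other pseudocounts, filters and scalings, a replicate block and each library left out. The limma and edgeR fits of these 4 comparisons were also run on simulated data with known changes, whose outcome is not given here. Only genes above the filter mean were changed there, so that run does not speak for members below it. Named members were the 10 highest in cells, the 10 highest in EVs and up to 8 per direction and comparison with the largest absolute log2 fold change less 1.96 SE among those past the threshold.

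Libraries of the same group differed by more than counting noise, so none was treated as a library deposited more than once. That does not show that they came from separate cultures. Reads carry no molecular identifiers, and floors cover counting error only. Values of 1 listed signalling gene are not reported here, though counts over the list include it. The members, lists and tests were chosen with earlier results of these data known. The coding length, the fit without a filter in edgeR, the ratios without near copies or the chromosome 6 region, and the GC ratios with a library left out were added after seeing the data.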

Additional observations from a re-analysis of the deposited data

How the results depend on the processing

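The ratios of summed RPKM stayed above 1 in the 4 comparisons under all alternatives tried. As a median over members the ratio was 8.67 for hypoxia EVs over normoxia EVs, 3.76 for hypoxia cells over normoxia cells and 20.2 for hypoxia EVs over hypoxia cells. The ratio of the GC-richest to the GC-poorest class ran from 14.5 to 57 in hypoxia EVs, 8.68 to 12.9 in normoxia EVs, 3.19 to 5.21 in hypoxia cells and 2.71 to 5.09 in normoxia cells with a library left out. With a library left out the ratios of summed RPKM ran from 2.94 to 7.004 for hypoxia EVs over normoxia EVs, 1.26 to 1.73 in cells, 11 to 15 for hypoxia EVs over hypoxia cells and 2.69 to 6.42 for normoxia EVs over normoxia cells. At equal depth, members with at least 2 reads numbered 132 in hypoxia EVs, 23.3 in hypoxia cells and 14.7 in normoxia cells on average, and with at least 3 reads 120 (119.7), 11 and 6. Without thinning they were 121 (120.7) in hypoxia cells and 102 in normoxia cells with a read. With a library left out they ran from 138.5 to 153 in hypoxia EVs, 57.5 to 94.5 in normoxia EVs, 47.5 to 57.5 in hypoxia cells and 37 to 52.5 in normoxia cells.

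The 8 members higher in hypoxia EVs than in normoxia EVs became 2 with a pseudocount of 0.5, 2 with a filter mean of 50, 5 with TMM factors, 19 with a pseudocount of 5, 19 with equal totals and 18 with all 12 libraries in the fit, and 0 to 37 with a library left out. The 48 higher in hypoxia EVs than in hypoxia cells became 89 (and 1 lower) without a filter, 75 with edgeR without a filter and 0 with a filter mean of 50, which no member passed, and 34 to 51 with a library left out. The 19 higher in normoxia EVs than in normoxia cells became 36 with edgeR, 38 with DESeq2, 43 (and 1 lower) with edgeR without a filter, 10 with only those 6 libraries in the fit, 0 with a filter mean of 50, and 16 to 36 with a library left out. The difference of responses gave 1 member with a pseudocount of 5, 1 with edgeR without a filter, and 0 to 10 with a library left out. Between hypoxia and normoxia cells at most 1 member passed the filter with those 6 libraries, so the 0 calls, also 0 to 0 with a library left out, say nothing of stability. Limma-trend and edgeR without a filter, on 188 members, also made 0, as did the fit of all 12 libraries on 51. The 3 signalling genes called in EVs became 5 with a pseudocount of 5, 5 with a filter mean of 50, 7 with equal totals, 8 with all libraries in the fit and 0 to 9 with a library left out. The 2 called in cells became 1 without a filter, 1 with TMM factors, 1 with edgeR without a filter, 0 with all libraries in the fit, and 1 to 3 with a library left out. Signalling calls were 13 to 14 in hypoxia and 11 to 16 in normoxia between EVs and cells with a library left out. For most of these refits the share of all genes called is not given. A change in count therefore need not be particular to the members or the signalling list.

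Replicate numbers did not pair the libraries: 18 correlations of same-numbered libraries ran from -0.117 to 0.0614, and 3 of 18 were best with their own number. With a replicate block 19 members were higher in hypoxia EVs than in normoxia EVs and 5 signalling genes were called there, again without the share of all genes. Of the 24 single-member results, 469 refits kept the direction, 412 of them past the threshold, and the 57 that lost it were all of hypoxia EVs over normoxia EVs. The cause of these changes was not tested. At 261 to 1114 member reads in a normoxia EV library, most single members lie at or near the floor of 3 reads.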

Other observations

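Normoxia EV libraries differed among themselves in the receptor level, with 261, 575 and 1114 member reads, or 43.9, 82.1 and 212 CPM. The number of genes above 0 ran in the same order, at 27767, 31875 and 36869, while the hypoxia EV libraries had 40153 to 41743.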
